A study of Homo sapiens with 3 samples.

Results

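The mitochondrial ribosomal protein genes described here are the 76 genes whose symbol is MRPL or MRPS followed by a number, with A, B or C allowed after MRPS, that lie on a main chromosome and reached 1 FPKM in at least 1 library. FPKM, the fragments per kilobase of transcript scaled to the mapped fragments of the library, is a level corrected for transcript length and library size. There were 47 genes of the large subunit and 29 of the small subunit by symbol, among 13966 genes at 1 FPKM or more in 1 library and 59013 gene IDs in all. Of 83 gene IDs with a fitting symbol, 6 copies of MRPS18B on alternate contigs of chromosome 6 and a second MRPS17 ID, listed under 1 FPKM in all 3 libraries, were left out.

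The libraries are of poly-A RNA from KKU-213, a human cholangiocarcinoma (bile duct cancer) line, and its subline KKU-213L5, known for high metastatic ability. NG is KKU-213 at 5.6 mM glucose, HG is KKU-213 at 25 mM, and L5 is the subline, also at 25 mM. All 3 cultures were in DMEM with serum and beyond 5 passages, and the labels say nothing of how the subline was made. Each group was 1 library, so no difference has a replicate check: every comparison describes 3 libraries, no p-value is given, and the line and the glucose cannot be told apart between L5 and NG.

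Mitochondria have a ribosome of their own, which makes the 13 proteins encoded in mitochondrial DNA, all of them subunits of the respiratory chain and ATP synthase. Its proteins are encoded in the nucleus, made in the cytosol and imported. Some have counterparts in the bacterial ribosome, from which it descends, and others were gained in the mitochondrial lineage. The large subunit joins amino acids and the small subunit reads the messenger RNA. The symbols do not follow the structure in all cases: MRPS30 and MRPS18A sit in the large subunit, and MRPS36 is known as a part of the oxoglutarate dehydrogenase complex, not of the ribosome.

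Depths estimated from the coverage columns, in units of 1e6 fragments, were 47.1 for NG, 76.01 for HG and 68.7 for L5. A median of 2683, 3998 and 3234 fragments stood behind a mitochondrial ribosomal protein gene in NG, HG and L5, and at least 200 behind each. Of 8 cholangiocyte markers 6 were at 1 FPKM or more in each library, led by KRT7 at 992, 784 and 789 FPKM, while CFTR stayed under 0.1 FPKM. Of 6 hepatocyte markers SERPINA1 alone reached 1 FPKM, no fibroblast marker of 6 did, and of 6 leukocyte and endothelial markers CD68 alone did. The added spike-in RNAs had a median log2 ratio of 0.41 in HG against NG, 0.42 in L5 against HG and 0.86 in L5 against NG. Scaling to them moved the median of all genes to -0.44, -0.36 and -0.80. Every direction below is therefore that on the deposited FPKM scale unless said otherwise, and some directions turn under spike-in scaling.

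The 76 genes were at moderate levels that varied little over the 3 libraries. Their summed level was 4498 FPKM in NG, with 4274 in HG and 3865 in L5, and their median was 49.5, 48.3 and 45.4 FPKM. Of the 76 genes, 73 were at 10 FPKM or more in each library, and 9, 6 and 4 were at 100 FPKM or more. The order of the genes was nearly the same between libraries, with Pearson's r of log2 FPKM over the 76 genes of 0.96 for NG and HG, 0.98 for HG and L5, and 0.95 for NG and L5. These values are across genes, which share library and transcript lengths, and are a description.

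The highest was MRPL51, a large subunit protein with no bacterial counterpart, at 306 FPKM in NG, with 252 in HG and 257 in L5. MRPL3, the counterpart of bacterial L3, followed at 199, 220 and 153 FPKM, and MRPL36, the counterpart of L36, at 149, 150 and 125 FPKM. MRPL51 was highest in NG and lowest in HG, while MRPL3 and MRPL36 were both highest in HG and lowest in L5. MRPL33 stood at 107, 101 and 90.4 FPKM. The highest gene of the small subunit, MRPS35, was listed at 107 FPKM in NG, with 102 in HG and 109 in L5. Its listed FPKM is thus about that of MRPL33, and its range over the libraries was narrow. The listed FPKM of MRPL51 and MRPL33 lay above their own intervals in all 3 libraries, while that of MRPS35 lay inside its interval. In NG the intervals were 215 to 227 FPKM for MRPL51, 51.5 to 59.6 for MRPL33 and 104 to 111 for MRPS35. In HG the interval of MRPL51, 179 to 189 FPKM, lay below that of MRPL3, 219 to 227.

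At the low end, MRPL30, the counterpart of bacterial L30, was listed at 3.94 FPKM in NG, with 9.40 in HG and 7.51 in L5. MRPS18B was at 6.59, 8.89 and 6.15 FPKM for the ID on chromosome 6 itself. MRPL41 was at 7.92, 7.95 and 7.45 FPKM, MRPL40 at 11.6, 12.1 and 12.5 FPKM, and MRPS26 at 16.2, 16.5 and 14.3 FPKM. The last 3 differed little over the libraries, and their intervals overlapped in each comparison. By structural class, the 30 large subunit genes with a bacterial counterpart had a median of 69.6 FPKM in NG, with 59.7 in HG and 52.4 in L5, and the 18 without one 35.4, 41.6 and 36.9 FPKM. In the small subunit the 16 genes with a bacterial counterpart were at 49.2, 50.6 and 47.7 FPKM and the 9 without at 47.3, 44.2 and 48.3 FPKM. Levels within each class ran over a wide range, from 6.95 to 191 FPKM among the large subunit genes with a bacterial counterpart by the mean of the 3 libraries.

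**Figure D1:**
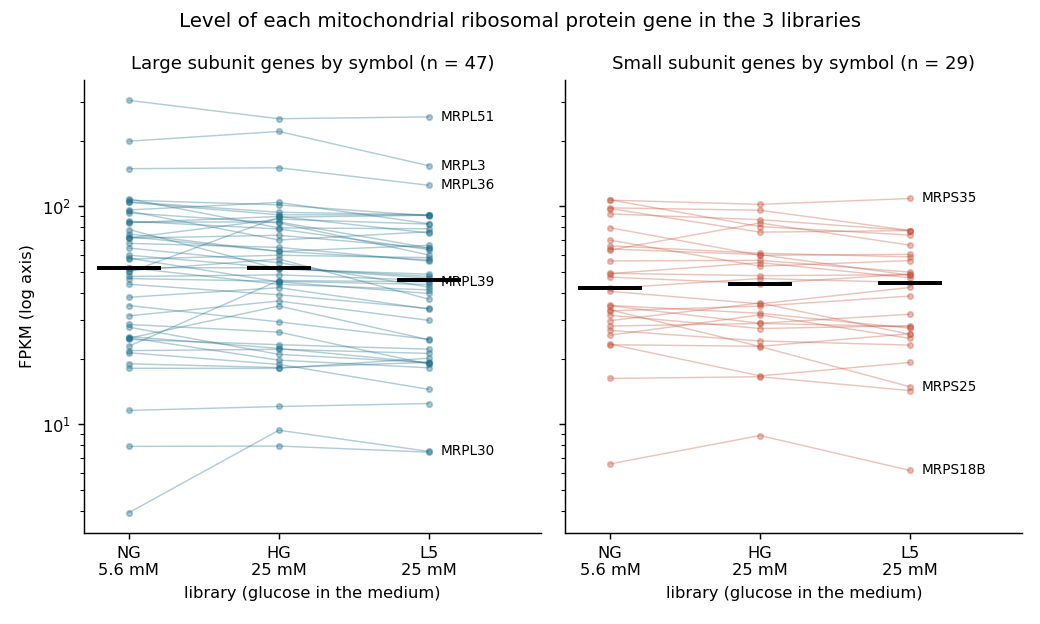
FPKM of each gene (log axis) in NG, HG and L5, with large and small subunit genes by symbol in separate panels; lines join a gene over the libraries and black bars are medians. Lines are nearly level for most genes, while MRPL30 is lowest in NG and MRPS25 is lowest in L5.

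The highest of the 3 libraries exceeded the lowest by a median of 1.25-fold over the 76 genes, from 1.02-fold for MRPS21 to 2.39-fold for MRPL30. The same quantity had a median of 1.26 over the 8201 genes at 5 FPKM or more in each library, so the spread of these genes was that of other genes at such levels. MRPS21, named after its value was seen, was listed at 49.3 FPKM in NG, with 48.1 in HG and 48.5 in L5. The highest library was NG for 41 of the 76 genes, HG for 26 and L5 for 9. The lowest was L5 for 51 genes, HG for 16 and NG for 9. The same counts over all genes are not given here. Of all genes tested, 61.4% were lower in HG than in NG, 61.8% lower in L5 than in NG and 50.9% lower in L5 than in HG.

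The first comparison asks what the glucose of the medium went with in KKU-213. Between HG and NG, most of these genes differed little and in both directions. The median log2 ratio of FPKM + 1, a scale that understates differences of low genes, was -0.07 over the 76 genes, against -0.09 over all 13618 genes tested. Scaling all genes to a median near 0 turned the sign of the members' median, to 0.02, and scaling to the spike-ins put it at -0.47. Of the 76 genes, 47 were below 0, or 61.8%, against 61.4% of all genes. A log2 ratio of at least 1 in size, the size rule used here, was met by MRPL30 alone, while 4.82% of all genes met it.

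A second rule asked that the interval deposited with the FPKM in 1 library lie wholly above or below that in the other. Such intervals cover counting and assignment error in a library and say nothing of the spread between cultures. By this rule 15 of the 76 genes were higher in HG, against 17.5% of all genes, and 25 were lower, against 30.7% of all genes. As shares these are 19.7% and 32.9%, near the background, so the family as a whole did not stand apart between HG and NG. The large subunit had a median of -0.06 and the small subunit of -0.08, with 10 of 47 and 5 of 29 genes higher and 15 of 47 and 10 of 29 lower by intervals.

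The 3 highest ratios in HG against NG were those of MRPL30, MRPL39 and MRPL37, all in the large subunit. For MRPL30 the deposited interval was 2.93 to 4.94 FPKM in NG, 8.28 to 10.5 in HG and 6.47 to 8.57 in L5, and the log2 ratio of HG to NG was 1.08 ± 0.17, where the error is a counting standard error from the intervals. HG and L5 were both high and NG low, with no overlap between NG and either. MRPL30 is the lowest member and rested on 200 fragments in NG, with 904 in HG and 614 in L5. It shares its locus, chr2:99771461-99814089 on GRCh37, with LIPT1 and C2orf15 on the same strand and MITD1 on the other. MITD1 was listed at 29.98, 19.9 and 21.8 FPKM and LIPT1 at 5.97, 4.07 and 3.16 FPKM, each highest in NG, where MRPL30 was lowest. Reads of these genes could be split between them by the authors' counting, and the part of that in the MRPL30 ratio was not tested.

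MRPL39, a large subunit protein without bacterial counterpart, on chromosome 21 (GRCh37 chr21:26957968-26979829), was listed at 22.8 FPKM in NG, with 45.6 in HG and 45.1 in L5. NG was low and the HG and L5 intervals overlapped, so the log2 ratio was 0.97 ± 0.06 in HG against NG and -0.02 ± 0.04 in L5 against HG. Its 20 neighbouring genes had a median log2 ratio of 0.18 in HG against NG, and one of them, APP, 273032 bases away, was at 69.0, 135 and 176 FPKM. ATP5J and GABPA, between them, had ratios of 0.29 and 0.28.

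MRPL37, likewise without bacterial counterpart, on chromosome 1 (GRCh37 chr1:54649714-54686603), was at 49.8 FPKM in NG, with 89.1 in HG and 90.9 in L5. HG and L5 again lay together above NG, at log2 ratios of 0.83 ± 0.04 in HG and 0.86 ± 0.04 in L5 against NG. Its neighbourhood was higher too: the 20 neighbouring genes had a median of 0.58 in HG against NG and 0.69 in L5 against NG. SSBP3 next to it was at 7.18, 12.9 and 14.7 FPKM, LRRC42 at 19.9, 33.8 and 37.6 FPKM, and TMEM59 at 90.2, 134 and 161 FPKM. The part of the region in the MRPL37 ratio was not tested.

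The promoters of these 3 genes and of MRPS25, the gene with the largest difference downwards, are printed because they are the members that stand furthest from the family's median. They are RefSeq windows on GRCh38.p14 of 250 bases before to 50 after the gene's start, 5′ to 3′ on the gene's strand, in lower case with capitals for matches to the 4 motifs described further down.
MRPL30, chr2:99180934-99181233, plus strand: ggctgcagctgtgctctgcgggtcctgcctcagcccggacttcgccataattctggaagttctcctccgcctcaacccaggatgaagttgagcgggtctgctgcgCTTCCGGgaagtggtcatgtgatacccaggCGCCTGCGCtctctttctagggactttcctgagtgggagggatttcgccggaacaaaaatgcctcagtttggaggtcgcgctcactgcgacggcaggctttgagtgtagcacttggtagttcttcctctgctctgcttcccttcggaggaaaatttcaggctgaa
MRPL39, chr21:25607432-25607731, minus strand: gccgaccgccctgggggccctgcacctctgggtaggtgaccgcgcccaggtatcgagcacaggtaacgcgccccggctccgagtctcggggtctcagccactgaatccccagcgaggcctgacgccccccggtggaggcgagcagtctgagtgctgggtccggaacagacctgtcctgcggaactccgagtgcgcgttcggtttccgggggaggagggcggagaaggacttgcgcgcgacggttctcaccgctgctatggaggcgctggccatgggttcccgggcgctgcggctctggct
MRPL37, chr1:54199917-54200216, plus strand: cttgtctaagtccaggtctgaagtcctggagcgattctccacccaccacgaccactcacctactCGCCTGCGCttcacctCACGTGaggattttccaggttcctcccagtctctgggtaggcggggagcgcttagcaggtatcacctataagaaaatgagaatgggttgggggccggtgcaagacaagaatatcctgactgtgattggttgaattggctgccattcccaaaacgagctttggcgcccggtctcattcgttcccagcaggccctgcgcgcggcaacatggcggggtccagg
MRPS25, chr3:15065266-15065565, minus strand: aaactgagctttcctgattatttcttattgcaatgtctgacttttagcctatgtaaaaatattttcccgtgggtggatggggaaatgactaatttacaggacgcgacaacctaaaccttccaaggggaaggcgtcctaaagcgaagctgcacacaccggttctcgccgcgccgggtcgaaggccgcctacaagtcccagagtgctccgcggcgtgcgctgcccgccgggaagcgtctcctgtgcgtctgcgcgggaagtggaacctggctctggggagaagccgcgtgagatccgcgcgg
The MRPL30 window held an NRF1 and an ETS motif and the MRPL37 window an NRF1 and an E-box motif, all more than 100 bases before the start. None of the motifs was found in the windows of MRPL39 and MRPS25.

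Among genes lower in HG than in NG, MRPL24, the counterpart of bacterial L24, had the lowest ratio. It was listed at 78.2 FPKM in NG, with 51.6 in HG and 48.8 in L5, high in NG alone, for a log2 ratio of -0.59 ± 0.05. MRPS25, a small subunit protein without bacterial counterpart, was at 33.5, 22.7 and 14.9 FPKM, with 3 separate intervals and a log2 ratio of -0.54 ± 0.07. MRPS14, the counterpart of S14, was at 23.3, 16.7 and 19.2 FPKM (log2 ratio -0.46 ± 0.07). MRPL32 was at 108, 79.6 and 78.8 FPKM (-0.44 ± 0.04) and MRPL22, at the polypeptide exit tunnel, at 94.95, 70.0 and 76.4 FPKM (-0.43 ± 0.05). In all 5 genes NG was the highest library, and in MRPS25 alone was L5 separate from HG and below it by intervals. MRPS14 overlaps CACYBP on the other strand, and MRPL32 overlaps PSMA2 at its start. These partners had log2 ratios of -0.31 and -0.32 in HG against NG.

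**Figure D2:**
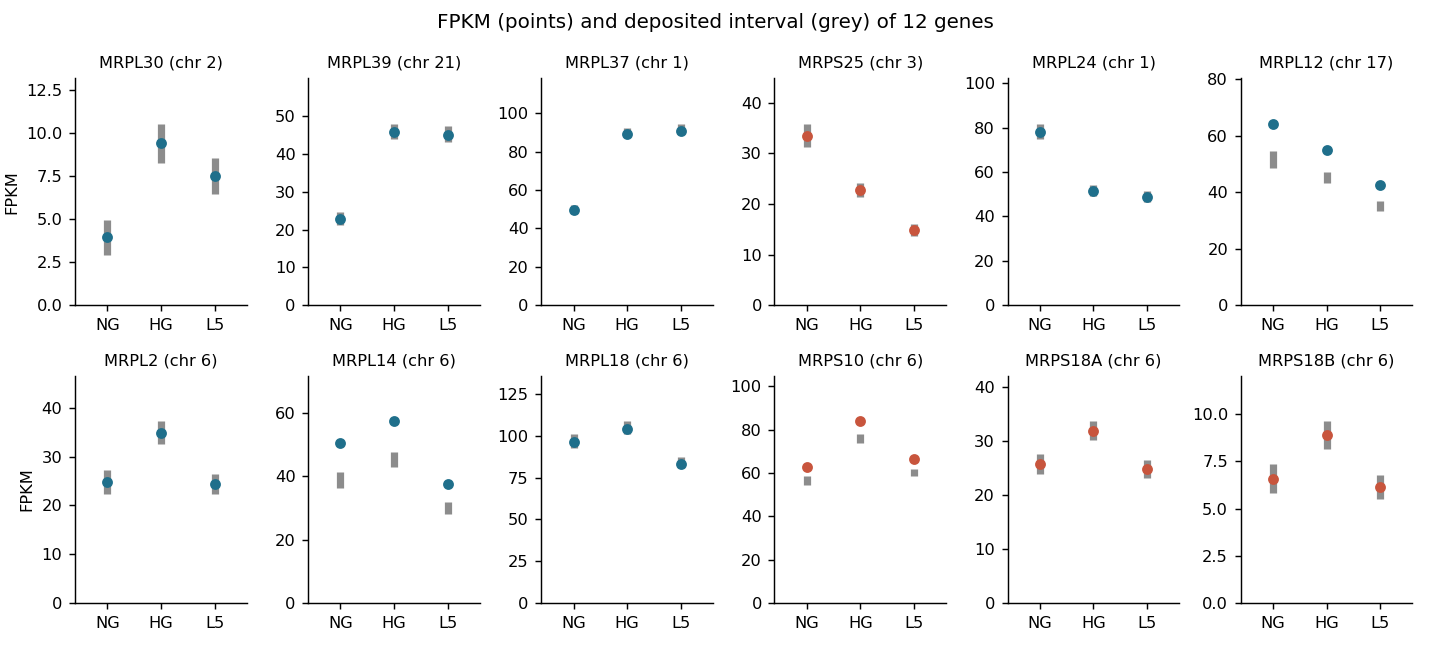
FPKM (points) with the deposited interval (grey bars) in NG, HG and L5 for the 3 genes highest in HG against NG, MRPS25, MRPL24, MRPL12 and the 6 genes of chromosome 6; blue points are large and red points small subunit genes by symbol. MRPL30, MRPL39 and MRPL37 are low in NG alone, MRPS25 has 3 levels, and the genes of chromosome 6 have their highest value in HG; in MRPL12, MRPL14 and MRPS10 the interval does not hold the FPKM.

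The second comparison sets the subline against KKU-213 at the same glucose. In L5 against HG the family leaned lower: the median log2 ratio was -0.12, against -0.01 over all 13372 genes tested, and 57 of 76 genes were below 0, or 75%, against 50.9% of all genes. None met the size rule, which 2.84% of all genes met. By intervals 29 genes were lower, or 38.2%, against 21.8% of all genes, and 7 higher, or 9.21%, against 20.7% of all genes. Scaling all genes to a median near 0 put the family's median at -0.12, and spike-in scaling put it at -0.53, against -0.36 for all genes. Each scaling multiplies all genes of a library by the same factor, so neither is a check of the family against all genes. Leaving out the 10 genes on chromosomes 3 and 6, a choice made after seeing the data, put the median at -0.08 and left 19 of 66 genes lower, or 28.8%. The 21.8% of all genes still includes these chromosomes, where 60.2% and 57.3% of the other genes tested were lower by intervals. The 2 shares are thus not like for like, and the share of all genes without these chromosomes is not given here.

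The subunits were alike by the interval rule, with 18 of 47 large subunit genes lower (38.3%) and 11 of 29 small subunit genes (37.9%). The large subunit had a median of -0.13, with 40 of 47 genes below 0, and the small subunit one of -0.06, with 17 of 29 below 0. The difference of the medians was -0.07 and no test of it is possible with these libraries. Within the large subunit by structure, 28 of the 30 genes with a bacterial counterpart were below 0, with a median of -0.23, and 13 of the 18 without one, with a median of -0.08. In the small subunit the medians were -0.05 for the 16 genes with a counterpart and -0.20 for the 9 without.

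The lowest ratios in L5 against HG were those of MRPL14, at 50.6 FPKM in NG, with 57.3 in HG and 37.5 in L5 (log2 ratio -0.60 ± 0.06), and of MRPS25 (-0.58 ± 0.07). MRPL3 followed at -0.52 ± 0.02, MRPL2, the counterpart of L2 near the catalytic centre, at -0.50 ± 0.07, and MRPL47 at -0.48 ± 0.04. MRPL14 and MRPL2 lie on chromosome 6 and the other 3 on chromosome 3, and in all 5 the L5 interval lay wholly below that of HG. At the other end MRPS2, on chromosome 9, was listed at 40.7 FPKM in NG, with 35.7 in HG and 42.4 in L5 (0.24 ± 0.05 in L5 against HG). MRPS31, MRPL50, MRPS9 and MRPS35 had ratios of 0.15, 0.15, 0.13 and 0.09. MRPS31, a small subunit protein without bacterial counterpart, was at 33.2 FPKM in NG, with 34.9 in HG and 38.7 in L5. MRPL50 was at 18.1, 18.1 and 20.1 FPKM and MRPS9, the counterpart of S9, at 34.96, 29.1 and 32.0 FPKM. These differences upwards were small. In MRPS2 and MRPS35 the L5 level was close to that in NG, and in MRPS9 it lay between those in HG and NG.

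In L5 against NG, where both the line and the glucose differ, the median log2 ratio was -0.19, against -0.10 over all 13724 genes tested, and 61 of 76 genes were below 0, or 80.3%, against 61.8%. By intervals 38 of 76 genes were lower, or 50%, against 30% of all genes, and 6 were higher, against 16.3% of all genes. The median was -0.24 in the large and -0.17 in the small subunit. MRPS25 alone met the size rule, at -1.12 ± 0.07, while 4.76% of all genes met it. It overlaps NR2C2 on the other strand, which was at 9.19 FPKM in NG, with 7.26 in HG and 5.88 in L5. The log2 ratio of NR2C2 was -0.57 in L5 against NG, and the part of shared reads in the MRPS25 ratio was not tested. After MRPS25 came MRPL24 at -0.67 ± 0.05, MRPL47 at -0.63 ± 0.05, MRPL12 at -0.58 ± 0.06 and MRPL54 at -0.58 ± 0.09. The 6 higher genes were MRPL39, MRPL37 and MRPL30, at 0.95, 0.86 and 0.79 (with spike-in scaling 0.12, 0.01 and 0.06), MRPL50 at 0.15, and MRPS31 and MRPL1, at 0.22 and 0.21. MRPL54, without bacterial counterpart, was at 28.7 FPKM in NG, with 26.5 in HG and 18.9 in L5. Its FPKM in HG lies outside its own interval there, 16.8 to 20.03, so that by intervals HG was lower than NG and L5 overlapped HG. MRPL1, the counterpart of L1, was at 71.6, 87.3 and 82.8 FPKM, low in NG. This comparison shares a library with each of the other 2 and is not independent of them.

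MRPL12, the stalk protein that brings translation factors to the ribosome, was at 64.3 FPKM in NG, with 55.1 in HG and 42.6 in L5, and its 3 intervals were separate. Its log2 ratio was -0.22 ± 0.05 in HG against NG and -0.36 ± 0.05 in L5 against HG. SLC25A10, which overlaps it on the same strand, was at 10.3, 10.4 and 9.70 FPKM and nearly level.

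The place of a gene on the chromosomes went with its ratio. The 6 genes on chromosome 6, MRPL2, MRPL14, MRPL18, MRPS10, MRPS18A and MRPS18B, were all higher in HG than in NG and all lower in L5 than in HG, with separate intervals each time. Both statements rest on the same HG library. By the same rule 50.7% of the 623 other genes of chromosome 6 were higher in HG against NG, where 17.5% of all genes were. In L5 against HG 57.3% of 625 other genes were lower, and 21.8% of all genes. Their median log2 ratio in HG against NG was 0.34, against 0.24 for the 623 other genes of that chromosome, of which 74.8% were above 0. In L5 against HG it was -0.41, against -0.31 for 625 other genes. With spike-in scaling 2 of the 6 stayed above 0 in HG against NG, at a median of -0.05 against -0.44 for all genes. Without these 6 genes, 9 of 70 members, and not 15 of 76, were higher by intervals in HG against NG. The 17.5% of all genes includes chromosome 6.

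MRPS10, the counterpart of S10, was listed at 63.0 FPKM in NG, with 83.8 in HG and 66.3 in L5, with HG highest and a log2 ratio of 0.41 ± 0.03 in HG against NG. MRPL2 was at 24.8, 34.9 and 24.4 FPKM (0.47 ± 0.08), with L5 back at the level of NG. MRPL18, known to bind 5S rRNA and help its import into mitochondria, was at 96.2, 104 and 83.2 FPKM (0.11 ± 0.04). The genes other than MRPL18 start between 30585486 (MRPS18B) and 44081194 (MRPL14) on GRCh37, and MRPL18 starts at 160210844. MRPL18 had the ratio nearest to 0 of the 6 in HG against NG and in L5 against HG.

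The promoters of 3 of these genes are printed to show what genes with like ratios share and do not share.
MRPS10, chr6:42217812-42218111, minus strand: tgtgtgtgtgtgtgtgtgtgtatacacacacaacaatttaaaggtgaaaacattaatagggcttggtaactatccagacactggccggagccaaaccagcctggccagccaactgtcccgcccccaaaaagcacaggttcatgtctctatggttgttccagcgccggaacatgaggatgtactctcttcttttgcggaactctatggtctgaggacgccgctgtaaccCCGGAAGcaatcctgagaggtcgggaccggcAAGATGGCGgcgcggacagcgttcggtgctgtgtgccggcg
MRPS18A, chr6:43687742-43688041, minus strand: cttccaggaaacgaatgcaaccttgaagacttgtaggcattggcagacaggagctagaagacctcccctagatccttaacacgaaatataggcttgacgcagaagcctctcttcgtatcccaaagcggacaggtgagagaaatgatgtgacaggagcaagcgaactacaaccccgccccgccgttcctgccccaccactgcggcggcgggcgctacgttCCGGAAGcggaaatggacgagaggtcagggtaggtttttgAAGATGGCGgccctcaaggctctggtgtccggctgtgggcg
MRPL14, chr6:44127259-44127558, minus strand: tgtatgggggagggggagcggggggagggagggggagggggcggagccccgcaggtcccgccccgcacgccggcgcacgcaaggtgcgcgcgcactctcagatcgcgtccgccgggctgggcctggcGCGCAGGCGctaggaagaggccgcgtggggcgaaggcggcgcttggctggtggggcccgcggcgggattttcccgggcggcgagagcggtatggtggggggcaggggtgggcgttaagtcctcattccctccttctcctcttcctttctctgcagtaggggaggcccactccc
The windows of MRPS10 and MRPS18A each held an ETS motif just before the start, at -22 and -31, and a YY1 motif 10 bases after it. The MRPL14 window held neither and had an NRF1 motif at -123.

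The 4 genes on chromosome 3, MRPL3, MRPL47, MRPS22 and MRPS25, were all lower in L5 than in HG, with a median of -0.50 against -0.30 for the 748 other genes of that chromosome tested. MRPL47, the counterpart of L29, was listed at 93.2 FPKM in NG, with 83.9 in HG and 59.8 in L5. MRPS22, a small subunit protein without bacterial counterpart, was at 98.3, 95.9 and 77.4 FPKM. In these genes L5 was the low library. In HG against NG the 4 genes had ratios from -0.54 to 0.15 with no shared direction, against -0.16 for the chromosome. In L5 against NG their median was -0.50 and that of 780 other genes -0.44. Among chromosome 9 genes, MRPS2 and MRPL50 were higher in L5 than in HG, at 0.24 and 0.15, and MRPL41 had a ratio of -0.08. The 521 other genes of that chromosome had a median of 0.23 in L5 against HG, and 80.6% were above 0.

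**Figure D3:**
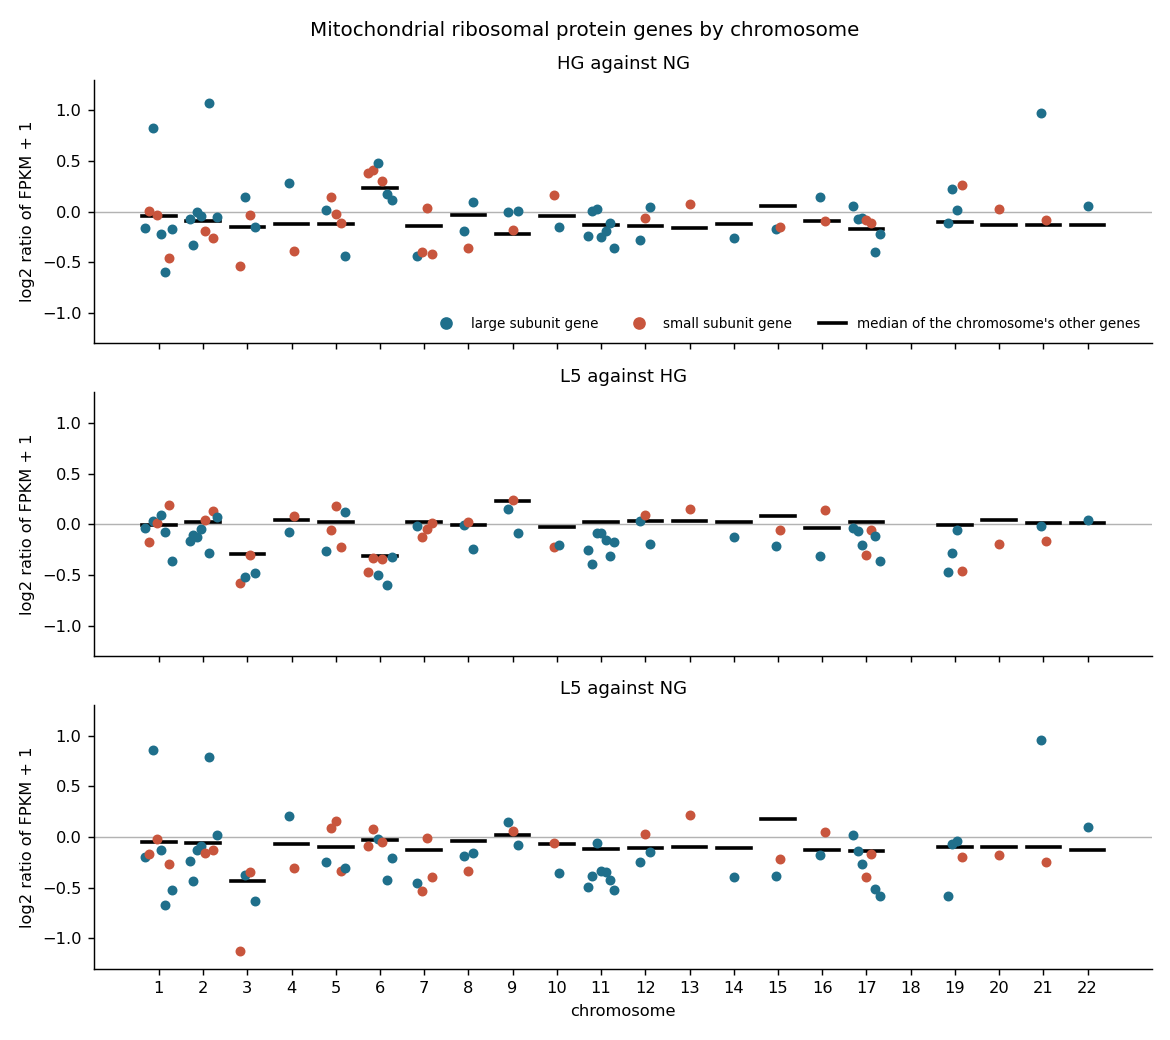
Log2 ratio of FPKM + 1 of each gene by chromosome in the 3 comparisons (blue, large subunit; red, small subunit; black bars, median of the chromosome's other genes tested). Points on chromosome 6 lie above 0 in HG against NG and below 0 in L5 against HG, as do the bars there; points and bar of chromosome 3 lie below 0 in L5 against HG.

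Over the 76 genes, Pearson's r between a gene's log2 ratio and the median of its 20 neighbouring genes was 0.53 in HG against NG, 0.56 in L5 against HG and 0.59 in L5 against NG, with Spearman's rho of 0.39, 0.42 and 0.39. Without chromosomes 3 and 6 (66 genes) r was 0.45, 0.17 and 0.54, and rho was lower, at 0.27, 0.15 and 0.31. In L5 against HG most of the relation thus lay on these 2 chromosomes. Genes near each other share neighbours and all share the libraries, so these values are a description. Relative to its neighbours, the family's median was 0.07 in HG against NG, with 32 of 76 genes below their neighbours, and -0.14 in L5 against HG, with 61 below. MRPL30 stood far above its neighbours, whose median was -0.18 in HG against NG. MRPS25 stood below its own in HG against NG and in L5 against HG, with neighbour medians of -0.12 in HG against NG and -0.41 in L5 against HG.

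**Figure D4:**
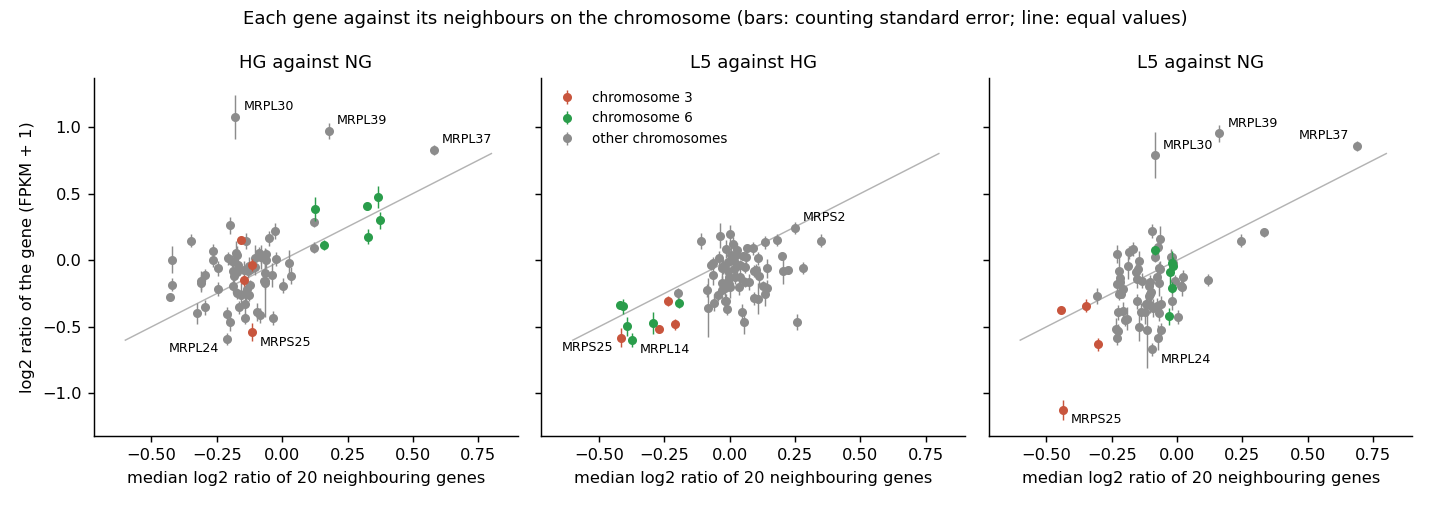
Log2 ratio of each gene against the median log2 ratio of its 20 neighbouring genes in the 3 comparisons, with counting standard errors; the grey line marks equal values. MRPL37, whose neighbours are also higher in HG and L5 than in NG, lies above the line by 0.25 in HG against NG and 0.17 in L5 against NG. MRPL30 and MRPL39 lie far above the line in HG against NG and in L5 against NG, and MRPS25 far below it in L5 against NG. In L5 against HG MRPL39 lies on the line, and the gene farthest from it is MRPS12, at -0.72 relative to its neighbours.

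The 3 human genes related to bacterial S18 were at different levels. MRPS18C, which takes the place of S18 in the small subunit, was at 69.9 FPKM in NG, with 53.1 in HG and 56.3 in L5. These values lay above its own intervals, 42.3 to 49.0 FPKM in NG, 34.4 to 39.1 in HG and 35.3 to 40.1 in L5. MRPS18A, placed in the large subunit, was at 25.6, 31.8 and 24.8 FPKM. Their order over NG and HG was opposite: log2 ratios in HG against NG were -0.39 ± 0.07 for MRPS18C, on chromosome 4, and 0.30 ± 0.06 for MRPS18A, on chromosome 6. MRPS18B, in the small subunit, is present on 6 alternate contigs of the major histocompatibility region beside its own ID, each copy listed at 6.11 FPKM in NG, with 7.86 in HG and 5.28 in L5. Summed over the 7 IDs the level was 43.3, 56.0 and 37.8 FPKM. The low level of MRPS18B given above is that of 1 of the 7 IDs. The log2 ratio of the sums, 0.37 in HG against NG, was near that of the single ID, 0.38 ± 0.09.

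MRPS30 was at 42.1 FPKM in NG, with 46.6 in HG and 44.7 in L5, and MRPS36 at 23.2, 22.8 and 26.0 FPKM. The intervals of MRPS30 and of MRPS36 overlapped in each comparison. The listed FPKM lay above its own interval for MRPS30 in all 3 libraries and for MRPS36 in L5, where the interval was 19.0 to 22.5. Assigning genes to subunits by structure and not by symbol put the large minus small difference of medians at 0.04 in HG against NG, -0.07 in L5 against HG and -0.04 in L5 against NG, where it was 0.02, -0.07 and -0.07 by symbol.

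The deposited interval failed to hold the listed FPKM for 16 genes in NG, with 19 in HG and 17 in L5. Where the offset differs between libraries, the interval call can go against the FPKM. MRPL23, the counterpart of L23 at the exit tunnel, was listed at 35.04 FPKM in NG, with 29.5 in HG and 24.5 in L5, yet its interval in L5, 22.4 to 26.7, lay above that in HG, 18.8 to 22.4. MRPL32 was likewise counted as higher in L5 than in HG at 78.8 against 79.6 FPKM. With intervals centred on the FPKM, an alternative added after seeing the data, 5 genes were higher and 33 lower in L5 against HG, in place of 7 and 29.

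Transcript shares were stable in most of the genes. The tables list 504 transcripts for the 76 genes, and in NG the leading transcript held 50% or more of the gene's level in 60 genes and 90% or more in 29. Of the 73 genes at 10 FPKM or more, 2 had a share that ranged over 15 percentage points or more. In MRPL28, the counterpart of L28, transcript ENST00000450882 had 6.62% of the gene's level in NG, 17.6% in HG and 24.1% in L5, beside a leading transcript, ENST00000199706, at 84.4%, 76.2% and 71.7%. In MRPL43, ENST00000318364 had 17.96%, 26.0% and 9.71%, while the leading ENST00000493646 had 38.8%, 37.4% and 50.6%. The MRPL28 form, shorter than the leading one, had its highest share in L5, and the MRPL43 form its lowest. In MRPL19, MRPL24, MRPL35, MRPL48 and MRPL55 the leading transcript differed between libraries. In MRPL48, ENST00000544819 had 38.2% in NG, 34.8% in HG and 24.98% in L5, where ENST00000310614 led with 25.8%. In MRPL24, the 2 forms, both of 883 nt, had 48.8% and 43.1% in NG and 44.7% and 49.5% in HG. These shares are model estimates with no interval here. The same counts over all genes are not given, so how the family compares with other genes in this was not tested.

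Pseudogenes of the family were mostly listed at 0. Of 65 pseudogenes with such a symbol, 47 were listed at 0 in all 3 libraries and 3 reached 1 FPKM. MRPL45P2 was at 17.0 FPKM in NG, with 13.4 in HG and 13.0 in L5, and its parent MRPL45, which anchors the ribosome to the inner membrane, at 57.3, 59.6 and 58.1 FPKM. MRPS36P1 was listed at 0.58, 1.43 and 1.68 FPKM, in HG and L5 above its own intervals, which ended at 0.996 and 1.39. MRPS10P1 was listed at 41.6 FPKM in NG, with 0 in HG and 7.39 in L5, yet its interval in NG ended at 1.48, on a transcript of 130 nt, so the FPKM of neither MRPS36P1 nor MRPS10P1 is used as a level. How reads shared with the parent genes were assigned is not given in the sources used here.

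Promoter sequences were found for 67 of the 76 genes, in 83 RefSeq windows of 300 bases. The motifs searched on both strands were GCGCANGCG (NRF1), CCGGAAG (ETS factors, among them GABPA), AAGATGGCG (YY1) and CACGTG (E-box), factors known to act on nuclear genes for mitochondria. No motif contains another, but the last 3 letters of the ETS motif are the first 3 of the YY1 motif, so their matches can overlap. The ETS motif was in 38.6% of the members' windows, against 17.7% of 12831 windows of genes at 1 FPKM or more and 10.3% of all 35116 windows. The YY1 motif was in 15.7%, against 3.60% and 1.75%, the NRF1 motif in 16.9%, against 13.2% and 7.52%, and the E-box in 10.8%, against 9.27% and 7.26%. At least 1 of the 4 was in 63.9% of the members' windows and 36.2% of those of genes at 1 FPKM or more. A match is a description of letters and shows no binding.

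The ETS matches sat near the start: 30 of 43 began in the 100 bases before it. Of the 14 YY1 matches 10 began after the start on the gene's own strand, as in MRPS10 and MRPS18A printed above. The letters of this motif hold an ATG. The NRF1 motif was in 10 of 40 large subunit and 3 of 27 small subunit genes with a window. Ratios of genes with and without a motif are given side by side with no test. In HG against NG the median was -0.06 for 29 genes with an ETS motif and -0.08 for 38 without, and in L5 against HG -0.20 and -0.08. The direction differed between motifs. For the NRF1 motif (13 and 54 genes) the medians were 0.003 and -0.08 in HG against NG, and -0.04 and -0.14 in L5 against HG. For the YY1 motif (13 and 54 genes) they were -0.001 and -0.07, and -0.13 and -0.10. For the E-box (9 and 58 genes) they were -0.19 and -0.06, and 0.01 and -0.14.

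The factors themselves were measured. NRF1 was listed at 6.88 FPKM in NG, with 6.04 in HG and 5.44 in L5, with overlapping intervals in HG against NG and in L5 against HG. GABPA was at 6.32, 7.90 and 6.92 FPKM, its partner GABPB1 at 22.6, 19.0 and 19.2 FPKM, and GABPB2 at 6.68, 4.44 and 4.88 FPKM. YY1 was at 43.6, 50.6 and 45.2 FPKM, and MYC, an E-box factor, at 103, 153 and 140 FPKM (log2 ratio 0.56 ± 0.02 in HG against NG). The subunits of the GABP factor thus had opposite directions in HG against NG, GABPA higher and GABPB1 and GABPB2 lower by intervals. Over the 12 regulators tested the median was 0.10 in HG against NG and -0.14 in L5 against HG.

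Other genes of mitochondrial translation gave a context for the family. The 7 mitochondrial ribosomal proteins under other symbols had a median log2 ratio of -0.09 in HG against NG and -0.04 in L5 against HG. They ran in HG against NG from MRP63, a large subunit protein, at -0.15 ± 0.08 to PTCD3, a small subunit protein with RNA-binding repeats, at 0.04 ± 0.06. DAP3, the GTP-binding protein of the small subunit, was the highest of them at 128 FPKM in NG, with 118 in HG and 117 in L5. Their values lay within the range of the 76 genes.

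The 22 genes of ribosome assembly and rRNA modification had medians of -0.06 and -0.18, with 18 of 22 below 0 in L5 against HG. Among them ERAL1, a chaperone of the small subunit's rRNA, was lowest in HG against NG, at 29.1 FPKM in NG, with 18.1 in HG and 25.7 in L5, and MPV17L2, an assembly factor of the large subunit, highest, at 0.26 ± 0.11. The 13 translation factors had medians of -0.12 and -0.12. The release factor MTRF1, at 8.48, 5.44 and 7.26 FPKM, was lowest and its relative MTRF1L, at 10.9, 16.9 and 13.6 FPKM, highest in HG against NG. ERAL1 and MTRF1 were low in HG alone and MTRF1L was highest there. The 17 mitochondrial aminoacyl-tRNA synthetases had medians of 0.10 and -0.16, and among those at 5 FPKM or more the ratios ran from -0.33 ± 0.06 for NARS2 to 0.47 ± 0.05 for RARS2 in HG against NG. The highest ratio of all 17, 0.54, was that of a gene under 5 FPKM.

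The mRNAs that this ribosome translates and the genes of its partner complexes are given next, for HG against NG. The 13 mitochondrially encoded mRNAs had a median of 0.09, from MT-ND6, at 3918 FPKM in NG, with 2735 in HG and 4558 in L5, to MT-CO1, at 5703, 7277 and 6537 FPKM. The 76 nuclear genes of respiratory chain and ATP synthase had a median of -0.25, with 61 of 76 below 0. They ran from NDUFB2 of complex I, at 88.3, 59.9 and 52.4 FPKM, to ATP5F1 of ATP synthase, at 455, 653 and 445 FPKM. The 79 cytosolic ribosomal proteins had a median of -0.24, with 69 of 79 below 0, from RPL23A, at 977, 621 and 972 FPKM, to RPL5, at 1709, 2433 and 2207 FPKM. So the nuclear respiratory and cytosolic ribosomal lists lay below the median of all genes, -0.09, and the mitochondrial ribosomal proteins near it. In L5 against HG the medians were -0.13, -0.06 and -0.11 for these 3 lists, against -0.12 for the mitochondrial ribosomal proteins. In L5 against NG they were -0.06, -0.27 and -0.37, against -0.19. Differences between lists were not tested.

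**Figure D5:**
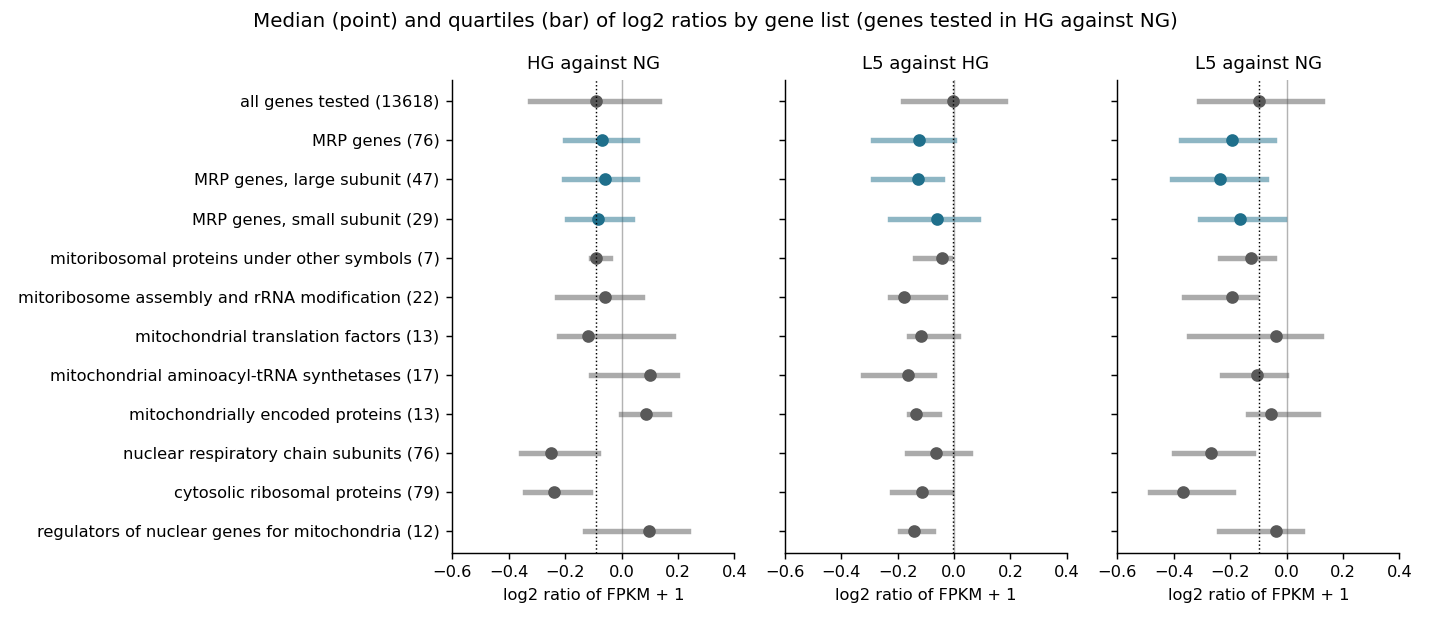
Median (points) and quartiles (bars) of the log2 ratio of FPKM + 1 for the mitochondrial ribosomal protein (MRP) genes, blue, and other lists, grey, in the 3 comparisons; numbers are genes tested in HG against NG and the dotted line is the median of all genes. In HG against NG the MRP genes lie at the dotted line, with the respiratory chain and cytosolic ribosomal lists to its left; in L5 against HG the MRP genes lie to its left.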

How the data were processed

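FPKM values for genes and isoforms were deposited by the authors; the submitters' processing notes name BWA, TopHat and Cufflinks and GRCh37, with no version given in the sources used here; strand-specific libraries were sequenced as paired 100 bp reads per the labels' protocols, and whether counting used strand is not given in the sources used here. The bounds of the FPKM interval were used as deposited. Isoform coverage, a signal of mean read depth per the file headers, gave fragments as coverage times length over 200 bases. Spike-in sequences were left out. Between any pair, the comparison set held every gene with an OK status on both sides whose FPKM reached 1 in one of them. Log2 ratios used a pseudocount of 1; counting errors are the interval's width over 4, rescaled to the FPKM. With 1 library per group no test across samples exists.

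The members and lists were chosen with earlier results of these data known. Named genes were, per comparison, the 5 highest and 5 lowest ratios with separate intervals at 5 FPKM or more, members past the size rule, the 5 highest and 5 lowest levels, S18 relatives, MRPS30, MRPS36, MRPL12, MRPL23, genes on chromosome 6, isoform cases and the extremes of each list; neighbours, overlapping genes, pseudogenes, regulators and MRPS21 were added after their values were seen. Alternatives were pseudocounts of 0.1 and 5, other filters, 2 scalings, isoform sums and left-out genes. Steps were tested on simulated data. Software was matplotlib 3.10.9, numpy 2.4.6, Python 3.11.15, scipy 1.17.1 and pandas 2.3.3.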

Additional observations from a re-analysis of the deposited data

How the results depend on the processing

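No paired analysis was possible because each group has 1 library. Of 147 values under alternatives, 122 stayed within set bounds. For a family median these were its 95% order-statistic interval over the members, and for a count 1.5 times. For the large minus small difference they were combined from the half-widths of the subunits' own intervals. Such intervals are over genes and say nothing of the spread between cultures. Scaling to the spike-ins moved the medians to -0.47, -0.53 and -1.02 in HG against NG, L5 against HG and L5 against NG, the genes past the size rule to 0, 1 and 42, those higher by intervals to 3, 0 and 0, and those lower to 66, 74 and 73. Scaling all genes to a median near 0 turned the median in HG against NG to 0.0217, put that in L5 against NG at -0.10, and gave 2 genes past the size rule in each, 16 lower in HG against NG and 11 higher in L5 against NG. A pseudocount of 5 left 0 genes past the size rule in HG against NG and in L5 against NG. Without chromosome 6 the count higher in HG against NG was 9. Alternatives chosen after seeing the data were these: without chromosomes 3 and 6 it was 8, and 19 genes were lower in L5 against HG; less the neighbours' median, the family's median turned to 0.0678 in HG against NG and was -0.0925 in L5 against NG. The large minus small difference kept its sign under each alternative run, at 0.01 to 0.04, -0.07 to -0.07 and -0.11 to -0.04. Most of these alternatives act on both subunits alike. Its own bounds included 0 in each comparison, at -0.11 to 0.16, -0.22 to 0.08 and -0.23 to 0.09, so the sign is not settled. The shifts given above follow from the construction of the scalings and of the smaller sets. The cause of the neighbours' shift was not tested. MRPL30, MRPL41, MRPS18B and MRPL55 had the fewest fragments in each library, and MRPL55 had the largest counting error, 0.26 in HG against NG.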
